A study of Mus musculus with 2 samples.

Results

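Immediate early genes are transcribed within minutes of a stimulus, without new protein synthesis, and many of their products are transcription factors. The 10 genes described here are the zinc finger factors Egr1, Egr2, Egr3 and Egr4, the corepressors Nab1 and Nab2, which bind EGR proteins and damp their activity, the AP-1 subunits Fos, Jun and Junb, and Nr4a1, an orphan nuclear receptor. Signals through ERK kinases reach the EGR and Fos genes mainly through serum response factor and its ETS partners on CArG boxes, and calcium and cyclic AMP act on many of these genes through CREB. MEF2 proteins, the family of Mef2d, are known activators of Jun and Nr4a1. In the retina, Egr1 and Fos are classical markers of cells driven by light, among them amacrine cells.

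Members were found by matching the RefSeq accession of every non-control probe to a gene symbol. This gave 11 probes on 20 spots, out of 27231 named probes for 20659 genes. The set was chosen by differences already seen on these same arrays, on which Egr1 was higher and Fos lower. The members' differences are therefore a description and were given no test.

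RNA from mouse retina at postnatal day 14 was read on 2 one-colour Agilent arrays. One held wild-type (WT) retina and the other retina labelled Mef2d KO. The strain, the knockout allele, the sex and the number of animals are not given in the sources used here. Each group is 1 array, so no difference could be checked against replicates or given a p-value. A level is the log2 of a probe's processed signal over its array's 75th percentile, and a difference is the level on the array labelled Mef2d KO minus that in WT. Errors written as ± come from the scanner software's error model for single spots and do not cover how animals vary. Levels of different probes are not comparable, so the genes were not ordered by level. With only 2 arrays, no genes were ranked by likeness of pattern.

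Several facts of the arrays bear on the members. Both Mef2d probes read higher on the array labelled Mef2d KO, by 0.43 ± 0.20 and 0.14 ± 0.21. Their place relative to the deletion is unknown here, and they check nothing about the label. The share of probe spots well above background, by the software's flag, was 75.5% in WT and 69.6% on the other array. Spiked-in controls (medians of 35 spots each), added to both samples, differed by at most 0.031 in either direction where their WT level was -1.80 or higher, in 6 of 10 controls. They differed by -0.11 at a WT level of -2.84, by -0.74 at -4.20 and by -1.81 at -5.38. Dim members therefore lie where a control also read lower on the array labelled Mef2d KO. Xist, the RNA of the inactive X chromosome, was well above background on that array only. Its brighter probe read 52.6-fold above the lowest level well above background in WT. The Y-linked genes Eif2s3y (-0.36) and Ddx3y (-0.46) were read on both arrays. Genotype and the sex makeup of the samples cannot be told apart here.

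Well above background on both arrays were 8 members. Of these, Egr1 and Nab2 (2 genes) read at least 2-fold higher in the sample labelled Mef2d KO, and Fos (1 gene) at least 2-fold lower. Among all 16187 genes read on both arrays, 0.618% passed 2-fold in the higher direction (100 genes) and 1.74% in the lower (281 genes). That split was 151 higher and 170 lower with median scaling, 157 and 164 with quantile normalization, 157 and 161 after cyclic loess, and 61 and 103 when background was corrected by normexp. The members were picked on this contrast, so nothing is read from their counts against these shares. The other 5, Egr4, Nab1, Jun, Junb and Nr4a1, stayed within 2-fold. Of the 8, 6 had a positive and 2 a negative difference. Their median difference was 0.20, and that of all 16187 genes was -0.0060. Egr2 was well above background on the array labelled Mef2d KO alone, and Egr3 on neither array. The closest members inside 2-fold were Egr4 at -0.53 and Nr4a1 at 0.52. The closest beyond it were Nab2 at 1.09 and Fos at -1.09.

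**Figure D1:**
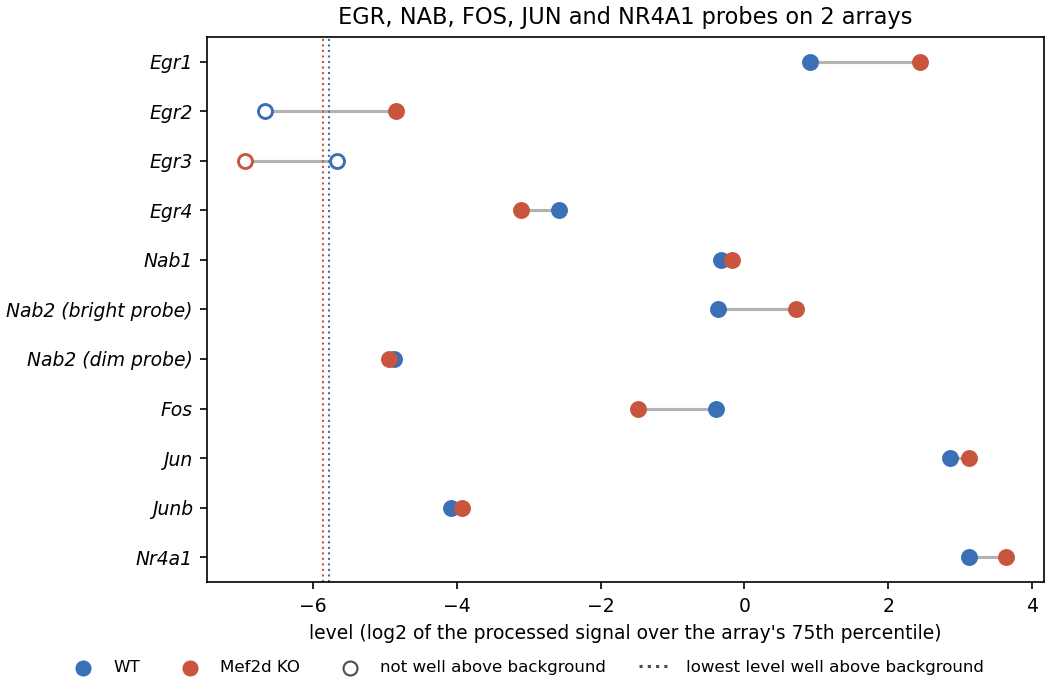
Level of each member probe (x axis, log2 of the processed signal over the array's 75th percentile) on the WT and the Mef2d KO array, 1 point per array; open points are not well above background, and dotted lines mark the lowest level well above background on each array. Egr1 and the bright Nab2 probe lie to the right on the array labelled Mef2d KO and Fos to the left, while Nab1, Jun and Junb differ by 0.26 or less; points of different probes cannot be set against each other.

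Egr1 gave the largest difference of the members read on both arrays. Egr1 encodes the EGR factor most used as a marker of neuronal activity. Its single probe had a processed signal of 1526 in WT and 4680 on the array labelled Mef2d KO. The difference was 1.53 ± 0.20, or 2.89-fold higher. It was far above the lowest signal the arrays could tell from background, and it ranged from 1.45 with normexp background correction to 1.71 with median scaling. Of the 1997 genes whose mean level lay within 0.5 of that of Egr1, 1.15% were at least 2-fold apart in either direction, and their median difference was 0.029. Egr1 was picked for its difference, so nothing about it is read from that share.

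Egr2, also called Krox20, is known for its role in hindbrain patterning and myelination. Its signal was 7.90 in WT, not well above background, and 29.9 on the array labelled Mef2d KO. The level on the array labelled Mef2d KO was 1.93-fold above the lowest level well above background in WT. That ratio is not a lower limit on the difference. The measured difference of 1.83 ± 0.74 was 0.31 with normexp background, 2.24 after cyclic loess and 2.55 after quantile normalization. Both signals were low, so the size of this difference is poorly fixed. The dim spiked-in controls read lower on the array labelled Mef2d KO, but they do not fix the sign of a dim spot.

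Egr3, an EGR gene of muscle spindles and lymphocytes, had a WT signal of 15.9 and one of 6.97 on the array labelled Mef2d KO. Neither was well above background, so no fold is given. Egr4, an EGR gene of neurons and germ cells, had signals of 134.9 in WT and 99.5 on the array labelled Mef2d KO, a difference of -0.53 ± 0.21. It stayed negative under each scaling tried, from -0.54 to -0.35. A spiked-in control near its level differed by -0.11. The EGR genes thus did not share a direction: Egr1 was 2-fold higher, Egr4 had a negative difference within 2-fold, Egr2 was read on one array only and Egr3 on none.

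Promoter windows from RefSeq (build GRCm38.p6), covering 250 bases before to 50 after each annotated start, were searched for 8 of the 10 members. Those of Egr1 and Egr3 were not searched, so nothing here says which motifs these 2 genes hold. A CArG box, searched on both strands by its 10-letter consensus, was found in 1 of these 8 genes, Egr2, in 4 of its 5 windows, which overlap in part and so share matches. Over all 32851 windows, 1.63% held one. The letters TGACG, the core of the cyclic AMP response element (CRE), were found in 6 of the 8 genes and in 20.8% of all windows. Genes and windows are unlike units: the 8 genes have 12 windows, and a match in any window counts for a gene. No enrichment is read from these figures. Stretches of Egr2 and Egr4 are shown because they carry such matches in the EGR family. Sequences here and below run 5′ to 3′ with the gene and end at the base before the annotated start, apart from the short Egr2 stretch. Capitals mark the CArG box (first, Egr2 only) and the TGACG matches, which read CGTCA on the opposite strand.
Egr2, plus strand, chr10:67537794-67537823: agtCCATATATGGgcagcgaCGTCAcgggt
Egr4, minus strand, chr6:85513590-85513774: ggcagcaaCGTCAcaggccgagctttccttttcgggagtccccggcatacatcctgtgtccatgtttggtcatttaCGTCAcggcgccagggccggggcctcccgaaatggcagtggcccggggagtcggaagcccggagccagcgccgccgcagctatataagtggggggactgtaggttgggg
A match is a string of letters and is not shown to be bound. In Egr4 no CArG box matched within this window. The members with this CRE core, Egr2, Egr4, Fos, Junb, Nab1 and Nr4a1, included both signs of difference.

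The corepressors also differed between probes. Nab2, which is itself induced by EGR proteins and represses them in a feedback loop, has a bright and a dim probe, annotated to 2 RefSeq transcripts. The bright probe had signals of 623 in WT and 1409 on the array labelled Mef2d KO, a difference of 1.09 ± 0.20, or 2.13-fold higher. With normexp background it was 0.95, just inside 2-fold, and it was 1.27 with median scaling. The dim probe had signals of 27.6 and 27.8, a difference of -0.07 ± 0.33. This probe turned positive with median scaling (0.10), quantile normalization (0.40) and cyclic loess (0.35). The probes thus do not tell the same size, and their mean was 0.51. Near the level of the dim probe, 9.08% of genes were at least 2-fold apart, against 1.75% near that of the bright one.

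Nab1, the paralog of Nab2, had signals of 647 in WT and 760 on the array labelled Mef2d KO. Its difference of 0.15 ± 0.20 was smaller than its spot error, but it was 0.32 with median scaling. The Nab1 window is shown because it was the only one of the 8 genes with the EGR site GCGTGGGCG, which was found in 0.612% of all windows. It also holds 1 TGACG match, left in lower case. That site occurs in 2 places, and its variant GCGGGGGCG, held by 2.91% of windows, in 1. Capitals mark these matches on either strand.
Nab1, minus strand, chr1:52500449-52500598: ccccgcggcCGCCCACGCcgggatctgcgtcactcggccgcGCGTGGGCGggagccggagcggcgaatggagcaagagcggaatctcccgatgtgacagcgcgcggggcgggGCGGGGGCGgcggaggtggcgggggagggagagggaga
No EGR site of either form matched in the window of Nab2. These are letters in short windows, and nothing about EGR binding follows from them.

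Fos was the one member at least 2-fold lower. Its protein pairs with JUN proteins to form AP-1. The array holds 10 spots of the Fos probe, which makes it the only member with repeated spots. The WT signals ran from 559 to 674 with a median of 613. On the array labelled Mef2d KO they ran from 284 to 321 with a median of 308. The spots of the arrays did not overlap. The SD between spots was 0.073 log2 in WT and 0.062 on the other array, which is error within an array and not between animals. The software flagged 2 of the Mef2d KO spots as outliers, and without them the difference was -1.09 ± 0.20, or 2.14-fold lower. With all 10 spots it was also -1.09. Its side of the 2-fold line moved with the scaling, since it was -0.92 with median scaling and -0.95 with normexp background, yet it was negative under each alternative.

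**Figure D2:**
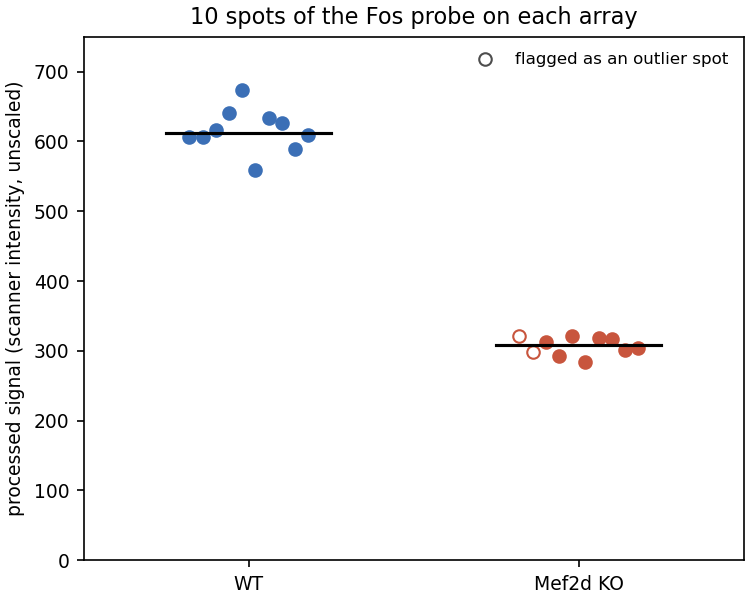
Processed signal (y axis, unscaled scanner intensity) of the 10 Fos spots on the WT and the Mef2d KO array, with the median of each array as a line; open points are spots flagged as outliers. The highest Mef2d KO spot, 321, lies below the lowest WT spot, 559; spots of an array share 1 RNA sample.

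The Fos window is shown with its TGACG matches and its TATA box in capitals. The serum response element of Fos is known to lie further upstream than this window reaches.
Fos, plus strand, chr12:85473755-85473889: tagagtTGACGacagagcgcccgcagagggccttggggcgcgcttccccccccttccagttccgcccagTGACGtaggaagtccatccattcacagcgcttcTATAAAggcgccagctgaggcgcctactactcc
The letters TATAAA start 33 bases before the annotated start and were found in 13.6% of all windows.

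Both JUN genes stayed within 2-fold. Jun, the main partner of Fos, had signals of 5893 in WT and 7477 on the array labelled Mef2d KO, a difference of 0.26 ± 0.20. It ranged from 0.24 to 0.43, the highest with median scaling. Junb, which often acts against Jun in growth control, was dim, with signals of 47.6 and 56.1 in the same order and a difference of 0.15 ± 0.24. It was 0.41 with quantile normalization and 0.47 with cyclic loess. Both JUN genes had positive differences under each scaling tried. Jun was the only one of the 8 genes whose window held the MEF2 consensus, which was found in 3.19% of all windows. The match, in capitals, lies from 33 to 24 bases before the annotated start. MEF2 binding near the Jun start is known from other cells.
Jun, minus strand, chr4:95052223-95052302: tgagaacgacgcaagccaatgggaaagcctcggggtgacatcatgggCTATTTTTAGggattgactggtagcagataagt

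Nr4a1, also called Nur77, is induced by calcium in neurons and lymphocytes. Its signals were 7021 in WT and 10673 on the array labelled Mef2d KO. The difference was 0.52 ± 0.20, or 1.43-fold higher, and it ranged from 0.45 with normexp background to 0.69 with median scaling. No MEF2 consensus matched in its window. The window held 4 TGACG matches and 1 EGR variant site, on the opposite strand, all in capitals.
Nr4a1, plus strand, chr15:101266606-101266845: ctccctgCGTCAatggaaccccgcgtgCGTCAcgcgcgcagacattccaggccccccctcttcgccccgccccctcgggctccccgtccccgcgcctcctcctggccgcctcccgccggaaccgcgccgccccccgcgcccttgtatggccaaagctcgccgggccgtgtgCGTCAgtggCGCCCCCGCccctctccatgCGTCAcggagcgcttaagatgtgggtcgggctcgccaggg
Of its relatives, Nr4a2 differed by -0.12 (0.05 with median scaling) and Nr4a3 was not well above background on either array.

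Egr1 and Fos parted by 2.62 ± 0.29 log2, the Egr1 difference minus that of Fos. This gap does not depend on how the arrays were scaled to each other by a constant. It was 2.57 after quantile normalization, 2.58 after cyclic loess and 2.40 when normexp was used. Both probes lie at levels where the spiked-in controls agreed within 0.031. The 2 genes differed in opposite directions on the same pair of arrays by more than the spot error of either. They were chosen for these opposite signs, so this gap is a description, and spot error does not cover how animals vary.

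**Figure D3:**
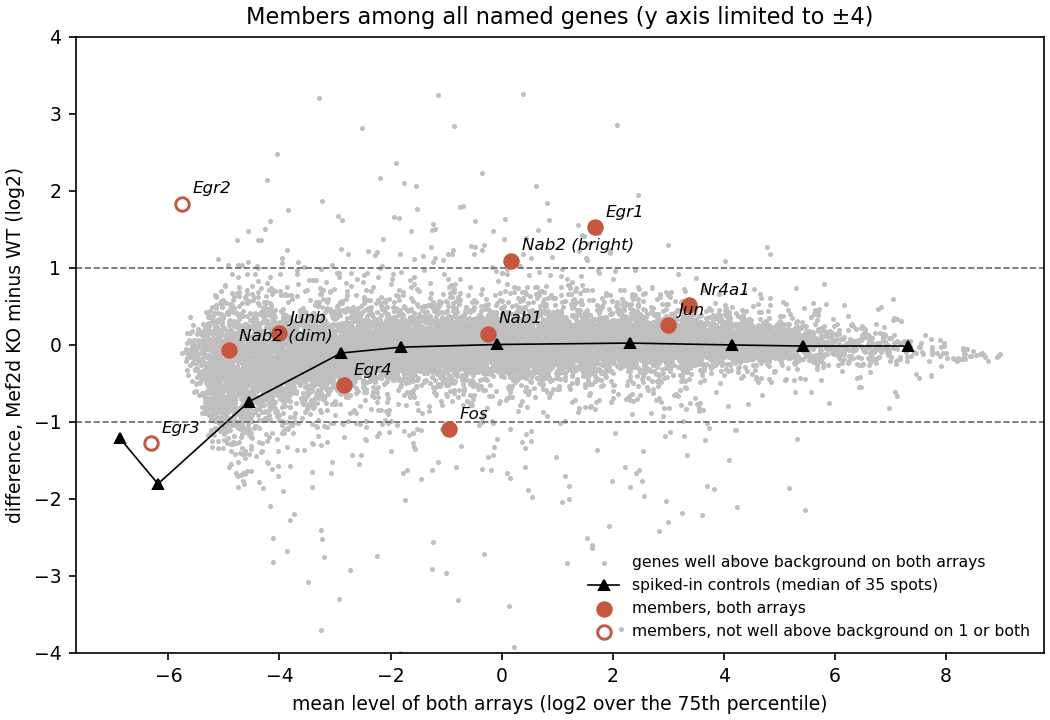
Difference (y axis, log2, Mef2d KO minus WT) against mean level (x axis, log2 over the 75th percentile) for every gene read on both arrays in grey, the members in red and the spiked-in controls as triangles; 7 genes lie outside the plotted range. Egr1, Nab2 (bright probe) and Fos lie beyond the dashed 2-fold lines at levels where the controls are flat. Egr2, Egr3, Junb and the dim Nab2 probe lie where the controls bend down, and Egr4 lies near a control that differed by -0.11.

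**Figure D4:**
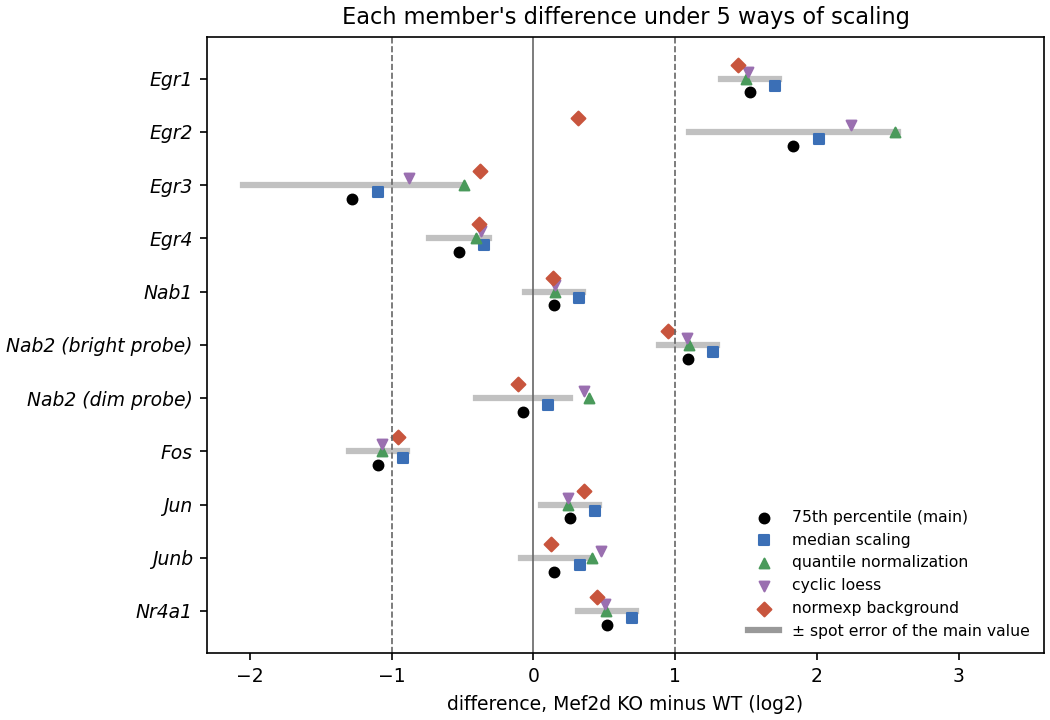
Difference of each member probe (x axis, log2, Mef2d KO minus WT) under 5 ways of scaling, with a grey bar for the spot error of the main value. Egr1 stays between 1.45 and 1.71 and Fos between -1.09 and -0.92, while Egr2 and Egr3 spread most, and only the dim Nab2 probe changes sign.

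Other immediate early genes were examined to place the members. Of 38 listed, 34 were read on both arrays, of which 1 was at least 2-fold higher and none at least 2-fold lower. That one was Klf10, a zinc finger repressor induced by TGF-beta, with signals of 703 in WT and 1694 on the array labelled Mef2d KO and a difference of 1.18 ± 0.20. Atf3, a stress-induced ATF factor, followed at 0.84 ± 0.21 and was 1.01 with median scaling. Btg2, an antiproliferative gene, differed by 0.61 and Klf2, a factor of endothelial and T cells, by -0.52. Arc, a synaptic plasticity gene, differed by -0.26, the neuronal factor Npas4 by 0.17, Fosb by -0.29 and Bdnf, a neurotrophin gene, by -0.48. Of the 34 genes, 21 had a negative difference, against 51.2% of all genes. With median scaling 14 of the 34 did, against 3656 of all 16187 genes. The median of the 34 was -0.14, and 0.037 with median scaling. With median scaling the all-gene median shifts from -0.0060 to 0.17, so signs under it are read against that shift. Ptgs2, a cyclooxygenase gene, was read in WT only, 1.11-fold above the lowest level well above background on the other array.

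The other AP-1 partners were within 2-fold at the 75th percentile scaling, but Atf3 passed it with median scaling and Batf3 with quantile normalization and cyclic loess. Of 14 listed, 13 were read on both arrays, 5 with a negative difference, and the median was 0.15. Besides Atf3, the largest were Batf3 (0.75 ± 0.30), Batf2 (-0.42 ± 0.25) and Batf (-0.40 ± 0.35), BATF factors of immune cells that were dim here. Batf3 was 0.11 with normexp background and 1.18 after both quantile normalization and cyclic loess. Batf2 was -0.07 after cyclic loess, and Batf turned to 0.02 after it and to 0.14 after quantile normalization. The FOS-related genes Fosb at -0.29 and Fosl2 at -0.35 had the sign of Fos by their brightest probes, turning to -0.11 and -0.17 with median scaling. The second Fosl2 probe gave -1.63. Jund, at 0.23, had the sign of Jun and Junb. By their brightest probes, Fosb, Fosl2 and Jund did not pass 2-fold.

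Upstream and feedback genes stayed within 2-fold. All 27 listed kinases and factors upstream of the immediate early genes were read on both arrays and within 2-fold, with a median of 0.0039. By their brightest probes, the largest were Rps6ka2, a ribosomal S6 kinase (-0.41), Srf, the serum response factor (0.37), Map2k2, which encodes the ERK activator MEK2 (0.25), and Braf, a RAF kinase (0.24). The other Srf probe gave -0.13. Some dimmer probes differed more: those of Mrtfb ran from -0.81 to 0.70, and one of Elk4 gave -0.52. All 14 listed feedback regulators of ERK signalling were within 2-fold as well. Spry2, an inhibitor of receptor tyrosine kinase signalling, differed by 0.69 ± 0.20 and Dusp5, a nuclear ERK phosphatase, by 0.62 ± 0.21, while Spry4 (-0.43) and Dusp1 (-0.30) had the opposite sign. Of 12 listed genes of the NuRD complex, which NAB2 recruits, and of EGR-related factors, 11 were read and within 2-fold. By their brightest probes, the largest was Mta2 at -0.64, followed by Gatad2a (0.24), Sp1 (0.22) and Mbd3 (0.17). A dimmer Hcfc1 probe gave -0.60. Wt1, whose protein shares the EGR site, was well above background on neither array.

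**Figure D5:**
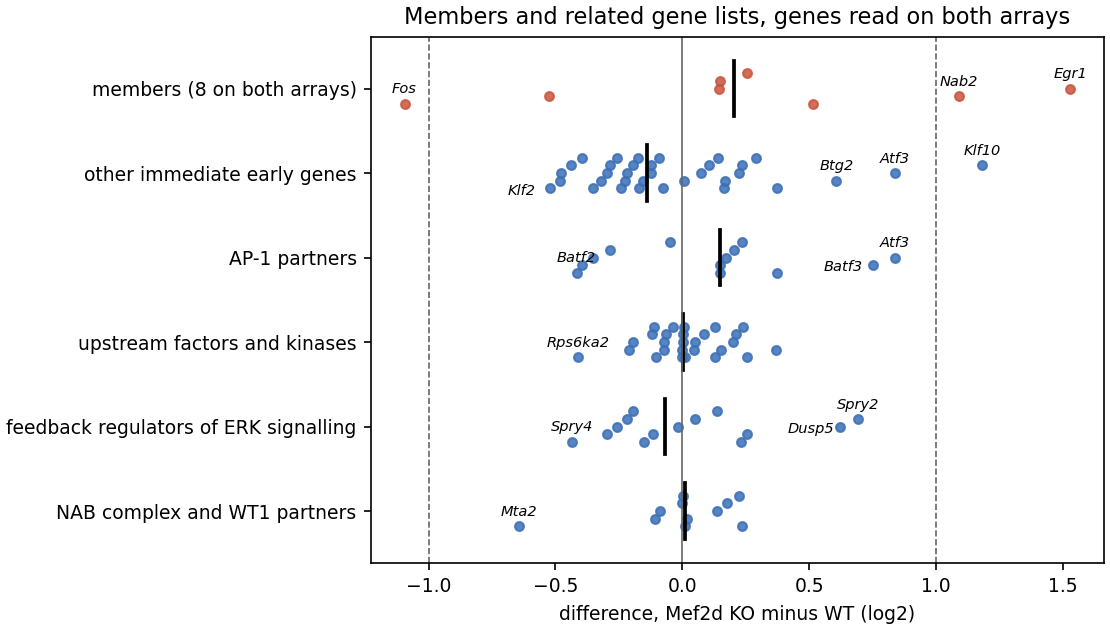
Difference (x axis, log2, Mef2d KO minus WT) of genes read on both arrays, 1 point per gene, for the members and 5 related lists, with each list's median as a bar; vertical positions within a list carry no value. Beyond the dashed 2-fold lines lie Egr1, Nab2 and Fos among the members and Klf10 among the other lists.

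Bulk retina cannot tell fewer cells of a type from less RNA per cell. All rod, cone, bipolar, amacrine, ganglion, horizontal and Mueller glia markers listed were well above background on both arrays and within 2-fold. Amacrine markers, of the cells best known for Egr1 and Fos, had a summed level of 97.2 in WT and 101 on the array labelled Mef2d KO, in units of the 75th percentile, and 4 of 7 had a positive difference. Such sums weigh bright probes most, and the Slc6a9 probe carries most of this one, so each is read only against itself on the other array. Microglia markers had positive differences in 6 of 7, none past 2-fold, and a summed level of 11.7 against 14.7. Endothelial markers were negative in 5 of 5, with a summed level of 19.6 against 18.4, and in 2 of 5 with median scaling. Bipolar markers were negative in 5 of 5 as well (1 of 5 with median scaling), with a summed level of 141 against 128. With median scaling 3656 of all 16187 genes were negative. The 2 pigment epithelium markers read, of 3 listed, were both positive (summed level of all 3 4.84 against 5.92), and so were the 2 blood markers on the array (15.5 against 19.0). Lens markers were lower by 2-fold or more in the 4 read on both arrays, from -4.09 for Mip to -2.10 for Crygs, with Cryaa and Cryba1 between them. Their summed level was 151 in WT and 33.8 on the other array. Lim2, read in WT only, measured 6.60-fold lower, and its log2 difference was -1.08 with normexp background. The part of any of these cell types, of sex, or of light before collection in the members' values was not tested.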

How the data were processed

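The members and gene lists were chosen with earlier results of these arrays known. The authors read Cy3 intensity with Agilent Feature Extraction 10.10.1.1, per the file headers, with background subtraction and spatial detrending but no scaling between arrays. Both arrays carry the same scan time. Their number limits precision. The deposited series table holds these intensities times 1 constant per array (1.88 and 1.76), linear and not centred, with medians of 155.1 and 136.6. Why these constants were used is not stated.

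Each array's log2 signals were set relative to its 75th percentile (807 and 858). Control spots and outlier spots (106 and 126) were left out, spots of a probe averaged, and a gene represented by its brightest probe. Names came from RefSeq accessions (GRCm38.p6). The array design uses mm9, so only promoter windows carry GRCm38.p6 coordinates. No test was possible with 1 array per group. Named genes were all members, the 4 largest differences of each of the 5 related gene lists, any gene of these past 2-fold, and Mef2d. Arc, Npas4, Bdnf, Fosb, Fosl2, Jund, Nr4a2, Nr4a3, Ptgs2, Wt1, the lens genes, Slc6a9, Xist, Eif2s3y and Ddx3y were added after their values were seen. On simulated data for this comparison (17111 genes), all 50 genes at each log2 change of 1.5, 3, -1.5 and -3 passed 2-fold, as did 15 of 16911 unchanged genes. No change near 2-fold was simulated. Changed genes were drawn only above a WT signal cutoff that Egr2, Egr3, Egr4, Junb and the dim Nab2 probe did not reach. Loss of dim signal between arrays was not simulated, so the recovery does not cover these probes. Changed genes were also drawn only from genes with 1 spot on the array. The recovery therefore does not cover Fos, with its repeated spots, or Nab2, with more than 1 probe. R 4.3.3, limma 3.58.1, Python 3.11.15, numpy 2.4.6, pandas 2.3.3 and matplotlib 3.10.9 were used.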

Additional observations from a re-analysis of the deposited data

How the results depend on the processing

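Settings tried were median scaling, a 75th percentile taken only over probes that pass the background flag, quantile normalization, cyclic loess, normexp background (on median signals, since the files used here hold no mean signal), the series table and the mean over probes, and for counts also a 1.5-fold threshold and no filter on dim probes. No member gene's difference changed sign under any of them, although that of the dim Nab2 probe did. The median over the members ranged from 0.19 to 0.38. The count of members at least 2-fold higher fell from 2 to 1 with normexp background and with the mean over probes, as Nab2 dropped within 2-fold, and was 3 without the filter, which admitted Egr2. The count lower fell from 1 to 0 with median scaling and with normexp background, and rose to 2 without the filter, through Egr3. In the other immediate early list, genes 2-fold higher rose from 1 to 2 with median scaling. Over all genes, 100 higher and 281 lower became 151 and 170 with median scaling, 157 and 164 with quantile normalization, 157 and 161 with cyclic loess, 61 and 103 with normexp background, 336 and 881 at 1.5-fold, and 225 and 1739 without the filter. Keeping the flagged Fos spots, chosen after seeing the data, left its difference at -1.09. The dim signals of Egr2, Egr3, Junb and the second Nab2 probe limit their values most. No paired analysis was possible because each group has 1 array, and for the same reason no array could be left out.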
